A study of Mus musculus with 12 samples.

Results

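The antioxidant and glutathione genes are the enzymes and regulators that keep reactive oxygen species in check in the heart. The list holds 45 genes grouped by function, drawn up with earlier results of these data known. It covers the NRF2 and KEAP1 regulators, the heme oxygenases and quinone reductases, the enzymes that make and recycle glutathione, the thioredoxin system, the superoxide dismutases with catalase, the glutathione peroxidases, the peroxiredoxins, the glutathione transferases and the glutaredoxins. Of these, 42 had a probe set (a group of short probes on the array for the same transcript) that named the gene alone, 86 such probe sets in all, out of 18193 such genes and 45037 probe sets in the table. Prdx1, Prdx5 and Prdx6 were not measured here, since no probe set used named any of them alone. RNA from hearts of male C57BL/6J mice of 8 to 10 weeks was hybridised to 12 Affymetrix arrays, in 4 groups of 3 biological replicates. The groups were wild type (WT) hearts without treatment, WT hearts taken 5 days after a single injection of 15 mg/kg doxorubicin (DOX), and the same treatments in mice labelled as knockouts of CHIP. CHIP, the product of Stub1, is a ubiquitin ligase that works with chaperones. The published methods describe mice that carry a CHIP transgene in the heart, and Stub1 went against the knockout label. Its intensity was 1857, 1831 and 1790.3 in untreated WT hearts and 8762, 9817 and 9655 in untreated knockout-labelled hearts. After DOX the Stub1 intensity was 1944, 1949.9 and 1930.1 in WT hearts and 5561, 7998 and 8723 in knockout-labelled hearts, so that both knockout-labelled groups lay above both WT groups. These hearts are therefore called knockout-labelled throughout, and the genotype directions below are those of the arrays so labelled. The promoter that drives the transgene is not given in the sources used here, and the published methods give a higher dose, older mice and saline for the controls.

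DOX is an anthracycline used against cancer whose dose is limited by damage to the heart. Its quinone ring can take an electron from flavoenzymes and pass it to oxygen, which yields superoxide. Superoxide dismutases turn superoxide into hydrogen peroxide, and catalase, glutathione peroxidases and peroxiredoxins remove the peroxide. Glutathione and thioredoxin supply the electrons for the peroxidases and are themselves reduced with NADPH. Many of the genes are switched on by the transcription factor NRF2 (encoded by Nfe2l2), which KEAP1 holds in the cytoplasm and marks for destruction until oxidants or electrophiles modify KEAP1. NRF2 with a small MAF protein binds the antioxidant response element in the DNA of its targets.

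The core of that element, TGACNNNGC (GCNNNGTCA on the other strand), was searched on both strands in the 250 bases before the annotated start of each gene. The promoter table, from RefSeq on GRCm38.p6, held 39 of the 45 genes. The core was present in 7 of the 39 (17.9%), namely Nfe2l2, Gclm, Txnrd1, Sod1, Prdx1, Gsta3 and Mgst1, and in 3112 of 27025 genes in the table (11.5%). A match is a description of the letters and was not tested as a binding site. The stretches below are shown because Gclm, Mgst1, Sod1 and Gsta3 are the genes that hold the core and passed the test for a change with DOX, and because Gstm2, which holds no core in this window, passed the test in every comparison but the interaction. Each reads 5′ to 3′ on the strand of the gene and ends at the base before the start, with the core in capitals. The Gclm stretch lies at chr3:122245307-122245556 (plus strand), that of Mgst1 at chr6:138140277-138140526 (plus strand, 1 of 2 annotated starts), that of Sod1 at chr16:90220512-90220761 (plus strand), that of Gsta3 at chr1:21240335-21240584 (plus strand) and that of Gstm2 at chr3:107986421-107986670 (minus strand).
Gclm: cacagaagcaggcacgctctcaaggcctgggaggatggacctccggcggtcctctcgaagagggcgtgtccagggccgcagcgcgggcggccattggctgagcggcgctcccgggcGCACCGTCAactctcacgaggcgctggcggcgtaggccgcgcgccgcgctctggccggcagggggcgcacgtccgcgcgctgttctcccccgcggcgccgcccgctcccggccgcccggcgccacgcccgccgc
Mgst1: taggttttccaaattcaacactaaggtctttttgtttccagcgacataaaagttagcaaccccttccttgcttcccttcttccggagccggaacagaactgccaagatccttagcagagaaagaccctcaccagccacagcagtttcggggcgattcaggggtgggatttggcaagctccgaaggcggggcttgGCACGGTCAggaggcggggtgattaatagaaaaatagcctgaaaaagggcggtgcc
Sod1: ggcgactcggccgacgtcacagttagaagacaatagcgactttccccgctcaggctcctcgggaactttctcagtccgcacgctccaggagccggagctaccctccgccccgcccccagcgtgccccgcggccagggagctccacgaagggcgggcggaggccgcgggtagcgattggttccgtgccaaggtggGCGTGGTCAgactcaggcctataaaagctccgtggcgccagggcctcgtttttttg
Gsta3: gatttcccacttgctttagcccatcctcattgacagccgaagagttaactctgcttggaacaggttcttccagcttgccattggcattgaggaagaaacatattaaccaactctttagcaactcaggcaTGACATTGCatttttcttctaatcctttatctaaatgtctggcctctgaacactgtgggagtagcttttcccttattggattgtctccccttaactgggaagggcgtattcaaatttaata
Gstm2: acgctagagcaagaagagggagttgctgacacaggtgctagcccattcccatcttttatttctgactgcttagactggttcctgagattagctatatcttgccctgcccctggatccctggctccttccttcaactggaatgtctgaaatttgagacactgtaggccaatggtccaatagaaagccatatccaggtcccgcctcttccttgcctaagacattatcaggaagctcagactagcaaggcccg
The core lay 134 to 126 bases before the start of Gclm, 121 to 113 bases before that of Gsta3, and 56 to 48 bases before those of both Mgst1 and Sod1.

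Values are linear intensities as deposited, and the 3 values of a group are given in the order of the replicate numbers. The median intensity of the 12 arrays ran from 28.9 to 30.4. On all probe sets, the untreated knockout-labelled array 3 and the DOX-treated WT array 2 each clustered alone, and each had the highest summed neutrophil markers of its group (5022 and 6442). These are the arrays that stood apart, and counts without both are given beside the main ones. The cardiomyocyte markers Myh6, Tnnt2, Tnni3, Actc1 and Ryr2 were bright on every array, so that the tissue matched its label. Their sum was 81550.2 to 85309.5 in untreated WT hearts and 81634.1 to 82617.1 in untreated knockout-labelled hearts. After DOX it was 63645.9 to 80656.4 in WT hearts and 71220.9 to 77026.5 in knockout-labelled hearts. Every DOX-treated array thus lay below every untreated array, and the part of this in the DOX results was not tested. In heart tissue, fewer cells of a type and less RNA per cell cannot be told apart.

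Over the members, DOX moved a minority, in both directions, and the genes that moved belonged to most of the roles. Tests are from limma across all 45037 probe sets on log2(intensity + 32), so that fold changes of dim genes are understated, and a gene is said to have risen or fallen where the Benjamini-Hochberg adjusted p was below 0.05. In WT hearts 9 of 42 members passed (21.4%), 6 higher and 3 lower. Of the probe sets on the array, 1.66% rose and 1.4% fell, and among genes as bright as all members but Glrx3 (mean intensity of at least 64) 6.7% passed. In knockout-labelled hearts 10 of 42 passed with DOX (23.8%), 7 higher and 3 lower, against 0.731% of all probe sets higher, 1.47% lower and 5.71% of the bright genes. Without DOX, 5 members were higher in knockout-labelled than in WT hearts (11.9% of 42) and 0 lower, against 0.924% and 0.89% of all probe sets and 5% of the bright genes. After DOX, 2 members were higher (4.76% of 42) and 0 lower, against 0.291%, 0.651% and 2.56%. The median log2 fold change of the members was 0.05 with DOX in WT hearts, where that of all genes was -0.02, and 0.00 in knockout-labelled hearts, as for all genes. Altogether 16 of 42 members passed at least once (38.1%, against 14.2% of the bright genes) and 26 never did. Among those 26 the log2 fold changes with DOX ran from -0.64 (Gstt1) to 1.19 (Gpx3) in WT and from -0.77 (Glrx) to 0.86 (Gpx3) in knockout-labelled hearts, with adjusted p of 0.065 or more. Without both arrays that stood apart the counts in the same order were 4, 6, 3 and 1. The comparisons were also fitted 12 times with 1 array left out (leave-one-out fits). With DOX in WT hearts these gave 0 to 11 members, the 0 without untreated WT array 2 or 3. With DOX in knockout-labelled hearts they gave 4 to 11, the 4 without DOX-treated knockout-labelled array 1 or 2. Between untreated genotypes they gave 1 to 6, the 1 without untreated WT array 2. Between DOX-treated genotypes they gave 0 to 5, the 0 without any 1 of the untreated WT arrays, DOX-treated WT array 1 or 2 or DOX-treated knockout-labelled array 2 or 3.

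**Figure D1:**
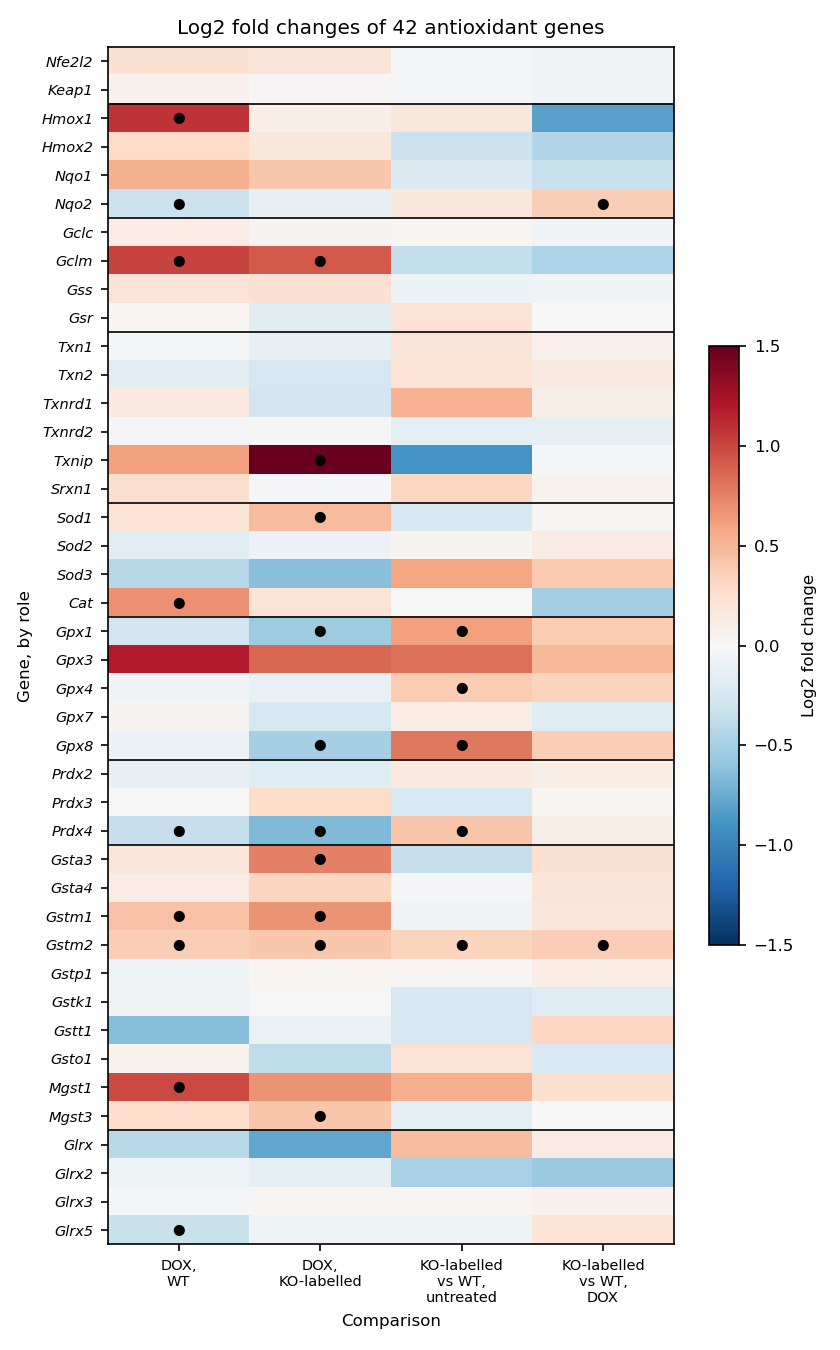
Log2 fold changes of the 42 measured genes (rows, grouped by role with a line between roles) in 4 comparisons (columns), coloured from blue (lower) to red (higher), with a dot where the adjusted p was below 0.05. The largest positive value is that of Txnip with DOX in knockout-labelled hearts (1.48), and Gstm2 is the gene with a dot in every column.

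The regulators themselves did not pass the test. Nfe2l2 encodes NRF2 and measured 860.3, 770.2 and 822 in untreated WT hearts, 809.6, 835 and 767 in untreated knockout-labelled hearts, 880.1, 1183 and 857 in DOX-treated WT hearts and 979.6, 918 and 880.5 in DOX-treated knockout-labelled hearts. Its log2 fold change with DOX was 0.23 (95% confidence interval -0.0042 to 0.46, adjusted p = 0.28) in WT and 0.20 (95% confidence interval -0.04 to 0.43, adjusted p = 0.41) in knockout-labelled hearts. The DOX-treated knockout-labelled arrays lay above all 3 untreated ones, while in WT hearts the groups overlapped. Keap1 measured 296, 289 and 284 in untreated WT hearts, 339, 270.4 and 256 in untreated knockout-labelled hearts, 331, 286 and 296 in DOX-treated WT hearts and 325, 269 and 283 in DOX-treated knockout-labelled hearts, with overlapping groups in each comparison. The transcript level of either gene does not show the amount or activity of its protein, which arrays do not measure.

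Among the heme oxygenases and quinone reductases, Hmox1 rose and Nqo2 fell with DOX in WT hearts. Hmox1, the inducible enzyme that breaks down heme and a textbook NRF2 target, measured 68.5, 65.1 and 67.8 in untreated WT hearts, 69.4, 75.7 and 95.0 in untreated knockout-labelled hearts, 152, 276 and 134 in DOX-treated WT hearts and 98.7, 95.3 and 71.3 in DOX-treated knockout-labelled hearts. The 3 DOX-treated WT arrays lay above the other 9, and the array at 276 was 1 of those that stood apart. The log2 fold change with DOX was 1.09 (SE 0.20, adjusted p = 0.027) in WT hearts and 0.10 (95% confidence interval -0.35 to 0.55, adjusted p = 0.88) in knockout-labelled hearts. The difference of the responses was -0.99 (SE 0.28, adjusted p = 0.46) and did not pass the test. After DOX Hmox1 was at -0.82 (SE 0.20, adjusted p = 0.090) in knockout-labelled against WT hearts, with groups that did not overlap. The rise in WT hearts held in 8 of 12 leave-one-out fits and was lost without untreated WT 1, 2 or 3 or DOX-treated WT 1 (adjusted p up to 0.096). Hmox1 is among the genes the study listed from these arrays, so that it is not an independent choice. Hmox2, the constitutive heme oxygenase, and Nqo1, a quinone reductase that transfers electrons in pairs and so avoids the semiquinone, passed in no comparison. For Nqo1 the log2 fold change with DOX was 0.53 (adjusted p = 0.076) in WT and 0.41 (adjusted p = 0.18) in knockout-labelled hearts, and in neither did the groups overlap.

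Nqo2, a quinone reductase that uses dihydronicotinamide riboside in place of NADPH, measured 212, 201 and 204 in untreated WT hearts, 259.9, 217 and 228 in untreated knockout-labelled hearts, 162, 150.3 and 162 in DOX-treated WT hearts and 192, 227 and 220.3 in DOX-treated knockout-labelled hearts. All 3 DOX-treated WT arrays lay below the other 9. It fell in WT hearts (log2 fold change -0.32, SE 0.07, adjusted p = 0.037) and was higher in knockout-labelled than in WT hearts after DOX (log2 fold change 0.36, SE 0.07, adjusted p = 0.043). The fall in WT hearts held in 6 of 12 leave-one-out fits and was lost without untreated WT 1, 2 or 3, DOX-treated WT 1 or 2 or DOX-treated knockout-labelled 3 (adjusted p up to 0.12, and 0.11 without both arrays that stood apart). The genotype call held in 5 of 12 leave-one-out fits and was lost without untreated WT 1, 2 or 3, DOX-treated WT 1 or 2 or DOX-treated knockout-labelled 2 or 3 (adjusted p up to 0.16, and 0.12 without both arrays that stood apart). No other probe set of Nqo2 passed in either comparison, and the gene, like Hmox1, is among those the study listed.

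Glutathione is made in a pair of steps, and the first, by glutamate-cysteine ligase, sets the rate. Gclm, the modifier subunit of that ligase and a textbook NRF2 target whose promoter is shown above, rose with DOX in both genotypes. Its intensity was 343, 329 and 413 in untreated WT hearts, 286, 264 and 264 in untreated knockout-labelled hearts, 776, 811 and 699 in DOX-treated WT hearts and 733, 501 and 427 in DOX-treated knockout-labelled hearts. Each DOX-treated array lay above each untreated array of either genotype. The log2 fold change was 1.02 (SE 0.16, adjusted p = 0.018) in WT and 0.91 (SE 0.16, adjusted p = 0.024) in knockout-labelled hearts. The call in WT hearts held in 8 of 12 leave-one-out fits and was lost without untreated WT 2 or 3 or DOX-treated WT 1 or 2 (adjusted p up to 0.068, and 0.053 without both arrays that stood apart). In knockout-labelled hearts it held in 9 of 12 leave-one-out fits and was lost without untreated knockout-labelled 1 or 3 or DOX-treated knockout-labelled 2 (adjusted p up to 0.061, and 0.067 without both arrays that stood apart). A dimmer probe set of Gclm had 1.10 (adjusted p = 0.017) in WT and 0.74 (adjusted p = 0.059) in knockout-labelled hearts, where it did not pass. Gclc, the catalytic subunit of the same enzyme, was at 0.11 (adjusted p = 0.66) in WT and 0.04 (adjusted p = 0.92) in knockout-labelled hearts. Gss, which adds glycine in the second step, measured 129, 115 and 126 in untreated WT hearts, 125, 114 and 105 in untreated knockout-labelled hearts, 144, 164 and 131 in DOX-treated WT hearts and 136, 151 and 131 in DOX-treated knockout-labelled hearts. The DOX-treated Gss values lay above the untreated ones within each genotype, at 0.20 (adjusted p = 0.19) and 0.23 (adjusted p = 0.16). Gsr, which returns oxidised glutathione to its reduced form, passed in no comparison.

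**Figure D2:**
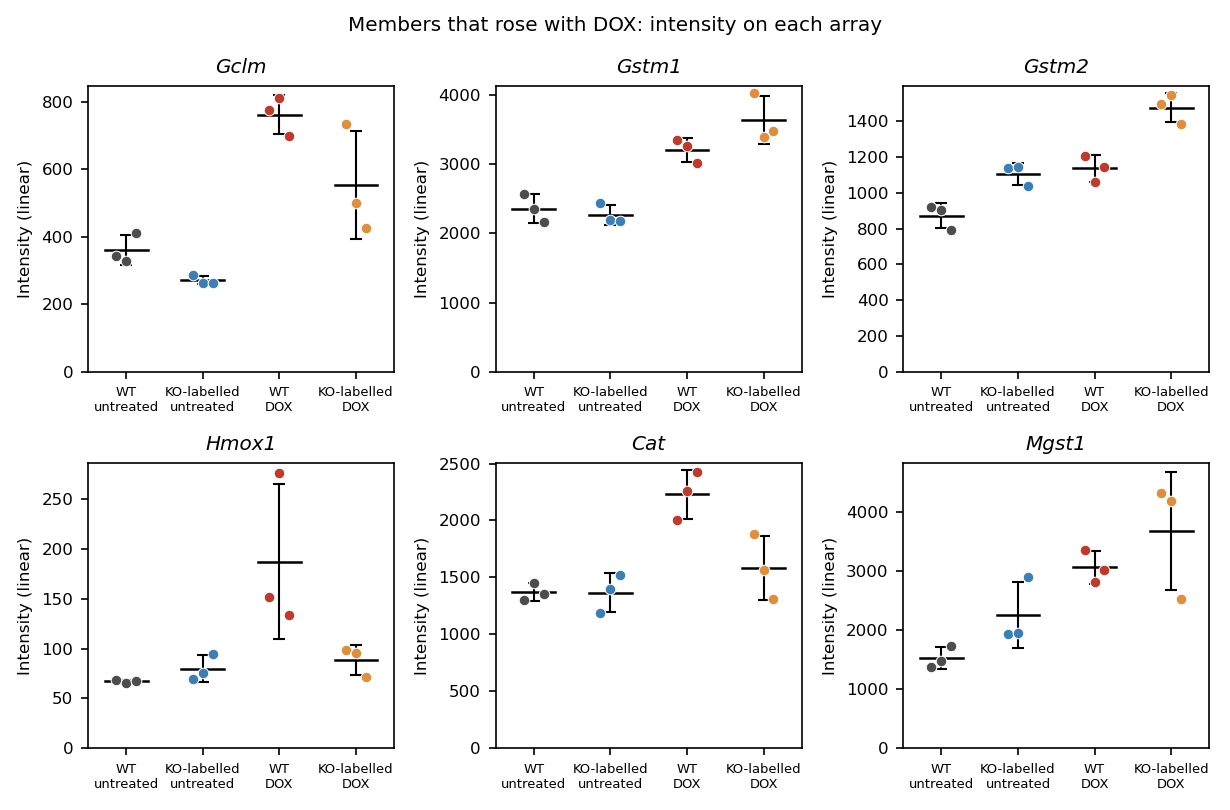
Linear intensity of 6 genes on each of the 12 arrays (points) with the group mean (horizontal line) and SD (bars), 3 arrays a group, each axis starting at 0. Gclm, Gstm1 and Gstm2 are higher with DOX in both genotypes, while the Hmox1 and Cat values of DOX-treated knockout-labelled hearts overlap those of their untreated group.

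In the thioredoxin system Txnip rose in knockout-labelled hearts. Txnip binds and inhibits thioredoxin and also curbs glucose uptake. It measured 1783, 3521 and 2099 in untreated WT hearts, 1560.5, 898 and 1403 in untreated knockout-labelled hearts, 2845, 4772 and 3533 in DOX-treated WT hearts and 4203, 3827 and 2809 in DOX-treated knockout-labelled hearts. Untreated knockout-labelled arrays were the lowest and did not overlap any other group, and the spread among untreated WT arrays was wide. The log2 fold change with DOX was 1.48 (SE 0.30, adjusted p = 0.039) in knockout-labelled and 0.61 (SE 0.30, adjusted p = 0.31) in WT hearts, with a difference of 0.87 (adjusted p = 0.60). Between the untreated genotypes Txnip had the lowest value of the members, -0.90 (SE 0.30, adjusted p = 0.19). The Txnip rise held in 5 of 12 leave-one-out fits and was lost without untreated WT 3, untreated knockout-labelled 1, 2 or 3 or DOX-treated knockout-labelled 1, 2 or 3 (adjusted p up to 0.14, and 0.064 without both arrays that stood apart). Txnrd1, the cytosolic thioredoxin reductase, measured 360.1, 396 and 385 in untreated WT hearts, 539.6, 447 and 720.3 in untreated knockout-labelled hearts, 378, 445 and 454 in DOX-treated WT hearts and 486, 443 and 429 in DOX-treated knockout-labelled hearts. Untreated knockout-labelled arrays lay above untreated WT arrays for Txnrd1 without passing (log2 fold change 0.52, adjusted p = 0.10). Txn1 and Txn2 (the cytosolic and mitochondrial thioredoxins), Txnrd2 (the mitochondrial reductase) and Srxn1 (which repairs over-oxidised peroxiredoxins) passed in no comparison. A dimmer probe set of Srxn1 did pass, with 0.36 with DOX in WT hearts (adjusted p = 0.029) and 0.42 between the untreated genotypes (adjusted p = 0.021), where the one used had 0.23 (adjusted p = 0.23) and 0.31 (adjusted p = 0.16).

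Of the enzymes that act on superoxide and peroxide directly, Sod1 rose in knockout-labelled and Cat in WT hearts. Sod1, the cytosolic copper-zinc superoxide dismutase, measured 4709, 4526 and 4254 in untreated WT hearts, 3899, 4019 and 3460.0 in untreated knockout-labelled hearts, 5158, 5069 and 5365 in DOX-treated WT hearts and 5758, 5062 and 5055 in DOX-treated knockout-labelled hearts. Untreated knockout-labelled arrays were lowest, untreated WT arrays lay between, and the DOX-treated arrays of both genotypes were highest. The log2 fold change was 0.48 (SE 0.07, adjusted p = 0.014) in knockout-labelled and 0.21 (SE 0.07, adjusted p = 0.13) in WT hearts. The Sod1 rise held in 11 of 12 leave-one-out fits and was lost without DOX-treated knockout-labelled 1 (adjusted p up to 0.051). A second probe set of Sod1 gave the reverse order of calls, with 0.45 (adjusted p = 0.025) in WT and 0.28 (adjusted p = 0.10) in knockout-labelled hearts. Both of these had positive log2 fold changes with DOX in both genotypes, and the dimmer probe sets of Sod1 passed in no comparison. Cat, the peroxisomal catalase, measured 1301, 1454 and 1358 in untreated WT hearts, 1184, 1398 and 1517 in untreated knockout-labelled hearts, 2000.4, 2259 and 2429.9 in DOX-treated WT hearts and 1878, 1564 and 1314 in DOX-treated knockout-labelled hearts. The DOX-treated WT arrays lay above all others. Cat rose in WT hearts (log2 fold change 0.69, SE 0.13, adjusted p = 0.029) and was at 0.20 (95% confidence interval -0.09 to 0.49, adjusted p = 0.52) in knockout-labelled hearts, with a difference between the responses of -0.48 (SE 0.18, adjusted p = 0.54). The Cat rise held in 7 of 12 leave-one-out fits and was lost without untreated WT 1, 2 or 3 or DOX-treated WT 1 or 2 (adjusted p up to 0.10, and 0.067 without both arrays that stood apart). A second Cat probe set had 0.54 (adjusted p = 0.10) in WT hearts, and Cat is also among the genes the study listed from these arrays. Sod2, the mitochondrial enzyme, and Sod3, the extracellular enzyme, passed in no comparison.

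The glutathione peroxidases were the role in which the genotypes differed most often without DOX. All 5 had a positive log2 difference in untreated knockout-labelled hearts, and Gpx1, Gpx4 and Gpx8 passed. Gpx8, a membrane peroxidase of the endoplasmic reticulum, measured 411, 388 and 394 in untreated WT hearts, 664, 629.7 and 853 in untreated knockout-labelled hearts, 368, 402 and 349 in DOX-treated WT hearts and 481, 513 and 480.2 in DOX-treated knockout-labelled hearts. Untreated knockout-labelled arrays were the highest, and DOX-treated knockout-labelled arrays were next. The difference without DOX was 0.79 (SE 0.10, adjusted p = 0.0086) and after DOX 0.37 (SE 0.10, adjusted p = 0.10). With DOX it fell in knockout-labelled hearts (log2 fold change -0.50, SE 0.10, adjusted p = 0.032) and was at -0.09 (95% confidence interval -0.30 to 0.13, adjusted p = 0.71) in WT hearts. The genotype call held in all 12 leave-one-out fits, with adjusted p up to 0.047. The fall with DOX held in 6 of 12 leave-one-out fits and was lost without untreated WT 2 or 3, untreated knockout-labelled 1 or DOX-treated knockout-labelled 1, 2 or 3 (adjusted p up to 0.12). Both values, like those of Gpx1, rest on the untreated knockout-labelled arrays, which the comparisons share.

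Gpx1, the abundant cytosolic and mitochondrial glutathione peroxidase, measured 1572, 1834 and 1951 in untreated WT hearts, 2614, 2643 and 3018 in untreated knockout-labelled hearts, 1536, 1540.4 and 1280.0 in DOX-treated WT hearts and 1707, 2118 and 1868 in DOX-treated knockout-labelled hearts. Untreated knockout-labelled arrays lay above all others. The difference without DOX was 0.62 (SE 0.11, adjusted p = 0.025), and the change with DOX was -0.53 (SE 0.11, adjusted p = 0.039) in knockout-labelled and -0.29 (SE 0.11, adjusted p = 0.18) in WT hearts. The genotype call held in 7 of 12 leave-one-out fits and was lost without untreated WT 1, 2 or 3 or untreated knockout-labelled 1 or 3 (adjusted p up to 0.090, and 0.089 without both arrays that stood apart). The fall with DOX held in 3 of 12 leave-one-out fits, namely those without untreated WT 1 or DOX-treated WT 2 or 3, and was lost in the others (adjusted p up to 0.14, and 0.10 without both arrays that stood apart). Gpx4, which reduces lipid hydroperoxides within membranes and guards against ferroptosis, measured 7052, 6811 and 6745 in untreated WT hearts, 9065, 8211 and 9618 in untreated knockout-labelled hearts, 6691, 5976 and 7103 in DOX-treated WT hearts and 8136, 8704 and 8051 in DOX-treated knockout-labelled hearts. Both knockout-labelled groups lay above both WT groups. Gpx4 was higher without DOX (log2 fold change 0.38, SE 0.07, adjusted p = 0.031), and after DOX the value was 0.33 (SE 0.07, adjusted p = 0.060). The call without DOX held in 6 of 12 leave-one-out fits and was lost without untreated WT 1, 2 or 3, untreated knockout-labelled 1 or 3 or DOX-treated knockout-labelled 3 (adjusted p up to 0.12). A second Gpx4 probe set had 0.24 without DOX (adjusted p = 0.17). With DOX Gpx4 was at -0.06 (adjusted p = 0.72) in WT and -0.11 (adjusted p = 0.52) in knockout-labelled hearts.

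Gpx3, the secreted plasma peroxidase, had the highest log2 fold change of the members with DOX in WT hearts, the highest differences between genotypes both without and after DOX, and the widest spread, and it passed nowhere. It measured 1845, 1859 and 1830.5 in untreated WT hearts, 2957, 1572 and 7681 in untreated knockout-labelled hearts, 5944, 4378 and 2925 in DOX-treated WT hearts and 7798, 5893 and 4735 in DOX-treated knockout-labelled hearts. The DOX-treated WT arrays all lay above the untreated WT arrays, while the untreated knockout-labelled arrays covered almost the whole range, with the highest value on the array that stood apart. The change with DOX was 1.19 (SE 0.48, adjusted p = 0.22) in WT and 0.86 (SE 0.48, adjusted p = 0.44) in knockout-labelled hearts. Between genotypes it was 0.83 (adjusted p = 0.52) without and 0.50 (adjusted p = 0.68) after DOX. Gpx7, another peroxidase of the endoplasmic reticulum, was at 0.11 (adjusted p = 0.76) without DOX.

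Among the peroxiredoxins, Prdx4 fell with DOX in both genotypes and was higher in knockout-labelled hearts without DOX. It is the peroxiredoxin of the endoplasmic reticulum, where it uses peroxide to oxidise protein disulfide isomerases. Its intensity was 592, 577 and 577 in untreated WT hearts, 818, 808 and 729 in untreated knockout-labelled hearts, 458, 446 and 448 in DOX-treated WT hearts and 479, 451 and 518 in DOX-treated knockout-labelled hearts. Untreated knockout-labelled hearts were highest and untreated WT hearts next, and both DOX-treated groups were lowest and overlapped each other. Prdx4 fell with DOX in WT (log2 fold change -0.35, SE 0.05, adjusted p = 0.016) and in knockout-labelled hearts (log2 fold change -0.67, SE 0.05, adjusted p = 0.0047). Without DOX it was higher in knockout-labelled hearts (log2 fold change 0.41, SE 0.05, adjusted p = 0.0097), and after DOX the difference was 0.09 (95% confidence interval -0.03 to 0.21, adjusted p = 0.45). The difference of the DOX responses was -0.32 (SE 0.07, adjusted p = 0.37) and did not pass. The fall in knockout-labelled hearts held in all 12 leave-one-out fits, with adjusted p up to 0.032. In WT hearts the fall held in 9 of 12 leave-one-out fits and was lost without untreated WT 2 or 3 or DOX-treated WT 2 (adjusted p up to 0.070). The genotype call held in 11 of 12 leave-one-out fits and was lost without untreated WT 2 (adjusted p up to 0.052). A dimmer probe set of Prdx4 had -0.40 with DOX in knockout-labelled hearts (adjusted p = 0.018), 0.32 between the untreated genotypes (adjusted p = 0.040) and -0.07 with DOX in WT hearts (adjusted p = 0.61). Another (mean intensity of 65.9) had -0.77 (adjusted p = 0.082), 0.62 (adjusted p = 0.16) and 0.11 (adjusted p = 0.84) in the same order. With probe sets averaged per gene, the fall in WT hearts did not pass, while the other calls of Prdx4 did. The fall with DOX in knockout-labelled hearts and the genotype difference without DOX share the untreated knockout-labelled arrays. Prdx3, of mitochondria, measured 3065, 2859 and 2706 in untreated WT hearts, 2593, 2895 and 1933 in untreated knockout-labelled hearts, 2696, 2707 and 3269 in DOX-treated WT hearts and 2865, 3005 and 2976 in DOX-treated knockout-labelled hearts, with groups that overlapped in each comparison. Prdx2, of the cytosol, passed in no comparison.

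**Figure D3:**
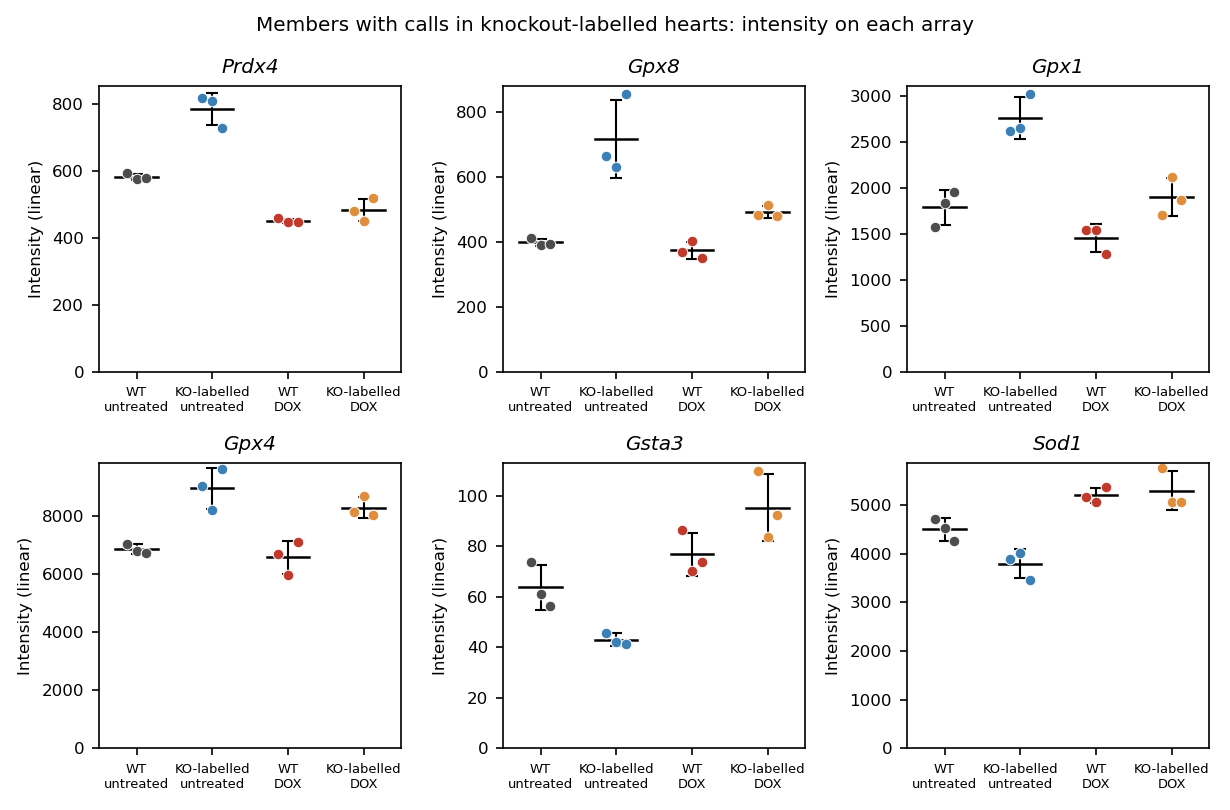
Linear intensity of 6 genes with calls in knockout-labelled hearts on each of the 12 arrays (points), with the group mean (horizontal line) and SD (bars), 3 arrays a group, each axis starting at 0. Prdx4, Gpx8 and Gpx1 are highest in untreated knockout-labelled hearts, Gpx4 is higher in both knockout-labelled groups, and Gsta3 and Sod1 are lowest in untreated knockout-labelled hearts.

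Markers of fibroblasts moved beside Prdx4 and Gpx8 in some comparisons and not in others. All 6 (Col1a1, Col1a2, Dcn, Pdgfra, Lum and Dpt) had a positive log2 difference in untreated knockout-labelled hearts, and Col1a1 passed (log2 fold change 1.13, adjusted p = 0.048). Their summed intensity was 10846 to 12983 in untreated WT hearts, 12621 to 18426 in untreated knockout-labelled hearts, 9507 to 10739.7 in DOX-treated WT hearts and 11641 to 12475 in DOX-treated knockout-labelled hearts. Most of that sum was Dcn (mean intensity of 8100), and the value of 18426 was that of the untreated array that stood apart. With DOX, Lum fell in WT (log2 fold change -1.53, adjusted p = 0.0044) and in knockout-labelled hearts (log2 fold change -0.99, adjusted p = 0.018), and it was higher in knockout-labelled hearts after DOX (log2 fold change 1.17, adjusted p = 0.020). Dpt fell with DOX in WT hearts (log2 fold change -0.83, adjusted p = 0.045), where Prdx4 fell and Gpx8 was at -0.09. Col1a1 fell with DOX in knockout-labelled hearts (log2 fold change -1.25, adjusted p = 0.033), where Prdx4 and Gpx8 fell. After DOX, where Lum was higher in knockout-labelled hearts, Prdx4 differed by 0.09 and Gpx8 by 0.37, and neither passed. With DOX, Dcn was at 0.08 in WT and -0.03 in knockout-labelled hearts, and Pdgfra at -0.10 and -0.22. Dcn, Pdgfra and Col1a2 passed in no comparison. Of 8 macrophage markers, 1 had a positive log2 fold change with DOX in WT hearts, where Hmox1 rose, and Cd68 (log2 fold change -0.95, adjusted p = 0.019) and Csf1r (log2 fold change -0.75, adjusted p = 0.016) fell, with a sum over the list of 5167 to 6638 untreated and 3092 to 4116 after DOX. The erythroid sum over 3 measured markers was 212 to 1160.4 in untreated and 35.6 to 56.3 in DOX-treated WT hearts, beside the falls of Nqo2 and Glrx5. In knockout-labelled hearts, where neither gene passed, the erythroid sum was 85.0 to 345 untreated and 40.4 to 51.0 after DOX. In untreated hearts most of that sum was Alas2 (177, 538 and 978 in WT hearts). Alas2 fell with DOX in WT hearts (log2 fold change -3.21, adjusted p = 0.025). Slc4a1 and Hba-a1 were dim (mean intensities of 32.5 and 9.05) and passed in no comparison, and Hba-a1 was at -0.01 with DOX in WT hearts. Of the cardiomyocyte markers Ryr2 fell with DOX in knockout-labelled hearts (log2 fold change -0.50, adjusted p = 0.042), and the markers of endothelium, smooth muscle, neutrophils and adipocytes passed in no comparison. The part of other cells in these results was not tested.

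The glutathione transferases join glutathione to electrophiles, and 5 of the 10 measured passed at least once, each time higher, where 14.2% of the bright genes passed at least once in either direction. Gstm1 and Gstm2, mu-class enzymes of the cytosol, rose with DOX in both genotypes. Gstm1 measured 2568, 2349 and 2159 in untreated WT hearts, 2439, 2186 and 2178 in untreated knockout-labelled hearts, 3343, 3260.5 and 3015 in DOX-treated WT hearts and 4033, 3396 and 3481 in DOX-treated knockout-labelled hearts. Each DOX-treated array lay above each untreated array. Gstm1 rose in WT (log2 fold change 0.44, SE 0.08, adjusted p = 0.028) and knockout-labelled hearts (log2 fold change 0.67, SE 0.08, adjusted p = 0.0079). Its call in WT hearts held in 8 of 12 leave-one-out fits and was lost without untreated WT 2 or 3 or DOX-treated WT 1 or 2 (adjusted p up to 0.10, and 0.076 without both arrays that stood apart). The call in knockout-labelled hearts held in all 12 leave-one-out fits, with adjusted p up to 0.034. The other probe sets of Gstm1 gave the same direction with DOX in both genotypes. Mu-class genes are close in sequence and the Gstm1 probe set is of the kind that can cross-hybridise, so that Gstm1 and Gstm2 may share signal.

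Gstm2 measured 923, 901 and 793 in untreated WT hearts, 1136, 1146 and 1035 in untreated knockout-labelled hearts, 1205, 1059 and 1146 in DOX-treated WT hearts and 1495, 1547 and 1386 in DOX-treated knockout-labelled hearts. The untreated WT arrays were lowest and the DOX-treated knockout-labelled arrays highest, with the other groups between. Gstm2 rose with DOX in WT (log2 fold change 0.37, SE 0.07, adjusted p = 0.029) and in knockout-labelled hearts (log2 fold change 0.41, SE 0.07, adjusted p = 0.024), and it was higher in knockout-labelled hearts without DOX (log2 fold change 0.33, SE 0.07, adjusted p = 0.049) and after DOX (log2 fold change 0.37, SE 0.07, adjusted p = 0.049). The DOX responses of the genotypes differed by 0.04 (95% confidence interval -0.19 to 0.26, adjusted p = 0.94). In WT hearts the rise held in 8 of 12 leave-one-out fits and was lost without untreated WT 2 or 3 or DOX-treated WT 1 or 2 (adjusted p up to 0.099). In knockout-labelled hearts the rise held in 9 of 12 leave-one-out fits and was lost without untreated knockout-labelled 3 or DOX-treated knockout-labelled 1 or 2 (adjusted p up to 0.093, and 0.051 without both arrays that stood apart). Without DOX the genotype call held in 1 of 12 leave-one-out fits, namely that without DOX-treated WT 2, and was lost in the others (adjusted p up to 0.14, and 0.060 without both arrays that stood apart). After DOX the genotype call held in 1 of 12 leave-one-out fits, namely that without untreated knockout-labelled 3, and was lost in the others (adjusted p up to 0.17, and 0.11 without both arrays that stood apart).

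Gsta3, an alpha-class transferase and textbook NRF2 target whose core is shown above, was dim and measured 73.7, 61.1 and 56.4 in untreated WT hearts, 45.8, 42.1 and 41.1 in untreated knockout-labelled hearts, 86.3, 70.2 and 73.7 in DOX-treated WT hearts and 109.6, 83.7 and 92.3 in DOX-treated knockout-labelled hearts. Untreated knockout-labelled arrays lay below all others. It rose with DOX in knockout-labelled hearts (log2 fold change 0.76, SE 0.09, adjusted p = 0.0077) and was at 0.19 (95% confidence interval -0.01 to 0.38, adjusted p = 0.30) in WT hearts, and the difference of the responses was 0.57 (SE 0.12, adjusted p = 0.34), the smallest adjusted p of the members for that test. The Gsta3 rise held in all 12 leave-one-out fits, with adjusted p up to 0.032. Mgst1, a transferase and peroxidase of the endoplasmic reticulum and outer mitochondrial membrane, measured 1379.9, 1480.0 and 1737 in untreated WT hearts, 1930.3, 1955 and 2909 in untreated knockout-labelled hearts, 3369, 2813 and 3021 in DOX-treated WT hearts and 4324, 4185 and 2533 in DOX-treated knockout-labelled hearts. It rose in WT hearts (log2 fold change 0.99, SE 0.22, adjusted p = 0.043), where the groups did not overlap, and was at 0.68 (SE 0.22, adjusted p = 0.15) in knockout-labelled hearts, where they did. The Mgst1 rise held in 3 of 12 leave-one-out fits, namely those without untreated knockout-labelled 3 or DOX-treated knockout-labelled 1 or 3, and was lost in the others (adjusted p up to 0.13, and 0.056 without both arrays that stood apart). Mgst3, its microsomal relative, measured 4496, 3888 and 3667 in untreated WT hearts, 3691, 3537 and 3612 in untreated knockout-labelled hearts, 4661, 4583 and 5267 in DOX-treated WT hearts and 5266, 4689 and 4607 in DOX-treated knockout-labelled hearts. Mgst3 rose in knockout-labelled hearts (log2 fold change 0.42, SE 0.08, adjusted p = 0.034) and was at 0.27 (SE 0.08, adjusted p = 0.11) in WT hearts, with no overlap in either. The Mgst3 rise held in 5 of 12 leave-one-out fits and was lost without untreated WT 2, untreated knockout-labelled 1, 2 or 3 or DOX-treated knockout-labelled 1, 2 or 3 (adjusted p up to 0.12, and 0.080 without both arrays that stood apart). Gstt1, a theta-class enzyme, had the lowest value of the members with DOX in WT hearts, -0.64 (SE 0.19, adjusted p = 0.10), with intensities of 351, 383 and 312 in untreated WT hearts, 379, 312 and 201 in untreated knockout-labelled hearts, 197, 183 and 263 in DOX-treated WT hearts and 279, 251 and 279 in DOX-treated knockout-labelled hearts. Gsta4, Gstp1, Gstk1 and Gsto1 passed in no comparison.

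Glutaredoxins use glutathione to undo disulfides between glutathione and proteins, and some carry iron-sulfur clusters. Glrx5, a mitochondrial member needed for iron-sulfur cluster assembly, fell with DOX in WT hearts (log2 fold change -0.33, SE 0.07, adjusted p = 0.046). It measured 2486, 2424 and 2359.6 in untreated WT hearts, 2470.3, 2454 and 2035 in untreated knockout-labelled hearts, 1979, 1777 and 1994 in DOX-treated WT hearts and 2115, 2223 and 2315 in DOX-treated knockout-labelled hearts. The DOX-treated WT arrays lay below all others. The Glrx5 fall held in 3 of 12 leave-one-out fits, namely those without untreated knockout-labelled 2 or 3 or DOX-treated WT 3, and was lost in the others (adjusted p up to 0.14). Glrx2, the other mitochondrial member, measured 1223, 1287 and 1241 in untreated WT hearts, 907, 882 and 860.1 in untreated knockout-labelled hearts, 1399, 1209 and 972 in DOX-treated WT hearts and 856, 869.7 and 674 in DOX-treated knockout-labelled hearts. All knockout-labelled arrays lay below all WT arrays, at -0.49 (SE 0.12, adjusted p = 0.085) without DOX and -0.55 (SE 0.12, adjusted p = 0.071) after DOX, and neither passed. Of the dimmer Glrx2 probe sets, which had the same direction, 1 passed without DOX (-0.36, adjusted p = 0.037) and had -0.35 after DOX (adjusted p = 0.054), and the other was at -0.35 (adjusted p = 0.054) and -0.35 (adjusted p = 0.071). Glrx, the cytosolic enzyme, had the lowest value of the members with DOX in knockout-labelled hearts, -0.77 (SE 0.18, adjusted p = 0.065). It measured 327, 382 and 326 in untreated WT hearts, 553, 587 and 366 in untreated knockout-labelled hearts, 308, 263 and 192 in DOX-treated WT hearts and 244, 289 and 295 in DOX-treated knockout-labelled hearts. Glrx3 had only a dim probe set that named it alone (mean intensity of 11.8), so that little can be read from it. It is also among the genes the study listed from these arrays.

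The DOX responses of the members in the 2 genotypes, which share no arrays, pointed mostly the same way. The sign was shared by 35 of 42 members (83.3%), against 61.2% of 18193 genes, and Pearson's r across the members was 0.73, against 0.62 across all genes. These are across genes, which are not independent replicates, and a few members with large changes weigh most in r. All members but Glrx3 had a mean intensity of at least 64, as did 9387 of the 18193 genes. The comparison with all genes was therefore not matched for brightness. Gclm, Gstm1, Gstm2 and Prdx4 passed in both genotypes, each in the same direction. Hmox1, Cat, Mgst1, Nqo2 and Glrx5 passed in WT hearts, and Txnip, Sod1, Gsta3, Mgst3, Gpx1 and Gpx8 in knockout-labelled hearts. Whether these responses differ is the question of the interaction, where 0 of 42 members passed in limma, as did 0% of all probe sets, and 0 members passed under any alternative run. At an unadjusted p below 0.05, the interaction had 3 members higher (Sod1, Gsta3 and Glrx5) and 4 lower (Hmox1, Cat, Gpx8 and Prdx4), and the smallest adjusted p was 0.34. The share of all probe sets below that unadjusted p is not given here, so that these counts are not a result about the members. A difference between the DOX responses of the genotypes was thus not shown for any member, and neither was likeness.

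**Figure D4:**
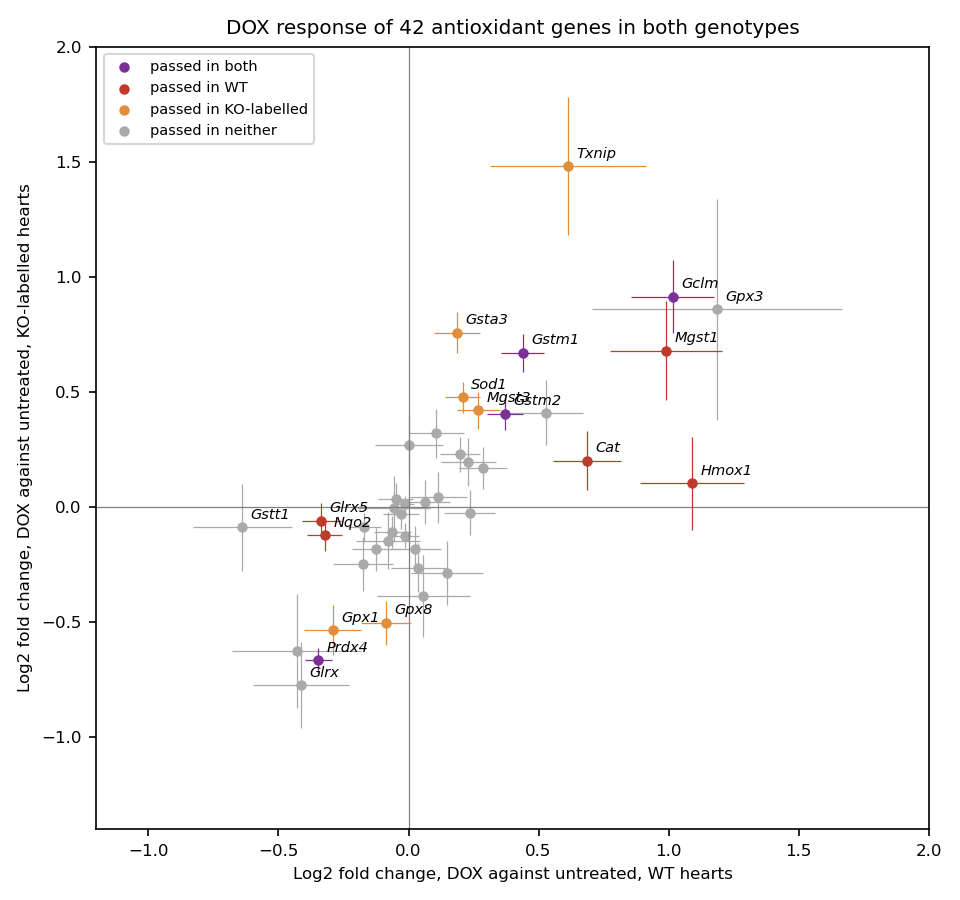
Log2 fold change with DOX in WT hearts (horizontal axis) against that in knockout-labelled hearts (vertical axis) for the 42 measured genes, with standard errors as bars and colours for the genotype in which a gene passed the test. Gclm, Gstm1 and Gstm2 lie at the upper right and Prdx4 at the lower left, and Hmox1 and Cat lie far to the right with a vertical value near 0.

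The comparison of genotypes was made without DOX and after DOX, again on separate arrays. Of the members, 30 of 42 had the same sign in both (71.4%, against 59.0% of all genes, again not matched for brightness). Without DOX the 5 members that passed were the peroxidases Gpx1, Gpx4, Gpx8 and Prdx4 and the transferase Gstm2, all higher in knockout-labelled hearts. Of these, Gstm2 also passed after DOX, together with Nqo2. With the dim probe sets left out before the fit, 8 members passed without DOX and 6 after DOX. That filter leaves 16087 of 45037 probe sets and changes the adjustment for all genes. The shares of the bright genes given above do not apply to these counts, so that they are not a result about the members. With arrays centred on their medians, 0 members passed after DOX.

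Further genes of the pathway were taken from 6 lists of 90 genes in all, of which 84 were measured. Among 18 partners and further targets of NRF2, 15 had a positive log2 fold change with DOX in WT hearts (83.3%, against 50.7% of the bright genes) and 13 in knockout-labelled hearts (72.2%, against 47.7%). In WT hearts 4 rose and 1 fell, or 27.8% of the list against 6.7% of the bright genes. In knockout-labelled hearts 1 rose and 1 fell, or 11.1% against 5.71%. Sqstm1, an autophagy receptor that binds KEAP1, measured 2213, 1908 and 2244 in untreated WT hearts, 1835, 1734 and 1838 in untreated knockout-labelled hearts, 3898, 4752 and 3727 in DOX-treated WT hearts and 3009, 2845 and 2151 in DOX-treated knockout-labelled hearts, and its log2 fold change was 0.94 (SE 0.13, adjusted p = 0.013) in WT and 0.54 (SE 0.13, adjusted p = 0.063) in knockout-labelled hearts. Ephx1, microsomal epoxide hydrolase, rose in both, by 0.90 (adjusted p = 0.024) in WT and 0.87 (adjusted p = 0.027) in knockout-labelled hearts. Aox1, an aldehyde oxidase, rose in WT hearts (log2 fold change 1.52, adjusted p = 0.026), as did the dim Rbx1, a subunit of the ligase that KEAP1 serves (log2 fold change 0.22, adjusted p = 0.043). Blvra, the biliverdin reductase that acts after heme oxygenase, fell in both, with a log2 fold change of -0.27 (adjusted p = 0.029) in WT and -0.28 (adjusted p = 0.029) in knockout-labelled hearts.

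The other lists are short and held few calls, so that 1 gene weighs much in a share. Of 16 selenoproteins, methionine sulfoxide reductases and sestrins, 1 rose and 2 fell with DOX in knockout-labelled hearts. That is 18.8% of the list, against 5.71% of the bright genes. The genes were Sesn1, a p53-induced sestrin (log2 fold change 0.94, adjusted p = 0.049), Sesn3 (log2 fold change -0.46, adjusted p = 0.014) and Selenof, a selenoprotein of the endoplasmic reticulum (log2 fold change -0.48, adjusted p = 0.021). Without DOX, Selenof (log2 fold change 0.39, adjusted p = 0.043) and Sesn3 (log2 fold change 0.44, adjusted p = 0.017) were higher in knockout-labelled hearts, as Prdx4 and Gpx8 were, on the same untreated arrays. Selenof and Sesn3 were 12.5% of their list, where 5% of the bright genes passed. Of 9 genes for NADPH supply, Me3, the mitochondrial malic enzyme, was lower in untreated knockout-labelled hearts (log2 fold change -0.90, adjusted p = 0.023). Me3 alone was 11.1% of its list, against the same 5%. Of 14 genes of glutathione turnover, Chac1, which degrades glutathione, was higher (log2 fold change 0.71, adjusted p = 0.049) and Ggct, which acts on gamma-glutamyl amino acids, was lower (log2 fold change -0.94, adjusted p = 0.046) in untreated knockout-labelled hearts. Chac1 and Ggct were 14.3% of their list, again against 5%. After DOX Chac1 measured 101, 92.5 and 104 in WT and 208, 167 and 150 in knockout-labelled hearts, without overlap, and did not pass. Chac1 is also among the genes the study listed from these arrays. None of 16 other glutathione transferases and peroxidases passed in any comparison. Most of them were dim (mean intensity under 64), so that little can be read from this. Over the 6 lists, 4 genes rose and 2 fell with DOX in WT hearts, 2 rose and 3 fell in knockout-labelled hearts, 3 were higher and 2 lower between the untreated genotypes, and 0 passed between the genotypes after DOX. These are 7.14%, 5.95%, 5.95% and 0% of the 84 genes, against 6.7%, 5.71%, 5% and 2.56% of the bright genes. The lists as a whole thus had calls at about the background share or below it. They include dim genes, which the bright genes leave out, so that these shares are not matched for brightness.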

How the data were processed

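Total RNA of 12 mouse hearts was hybridised to Affymetrix arrays. Per the labels the authors used Affymetrix Expression Console; the algorithm is not given in the sources used here. The deposited table holds 1 linear intensity per probe set and array, as the authors made it; array medians were alike (28.9 to 30.4). From it log2(intensity + 32) was fitted with limma 3.58.1 in R 4.3.3 (4 group means, all 12 arrays, moderated variance, no trend), with Benjamini-Hochberg adjustment over 45037 probe sets and a threshold of 0.05. Each gene was represented by the probe set with the highest mean among those that name it alone (34945 probe sets name 1 gene, 932 several and 9160 none). The number of arrays limits the precision. Intervals are 95% intervals of the fit.

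Members, related lists and markers were chosen with earlier results of these data known. All 45 members are accounted for. Values on every array are given for members that passed a test, had the highest or lowest log2 fold change in a comparison, or had 1 of the 2 smallest p of their role. Genes of related lists are named where they passed. Marker lists covered cardiomyocytes, fibroblasts, macrophages, endothelium, erythroid cells, neutrophils, adipocytes and smooth muscle. The fits were tested on simulated data. Alternatives changed the scaling, pseudocount (16 or 64), dim filter (mean under 64), variance trend, array weights, replicate block, probe set rule, arrays fitted and test (the methods' t-test), and left out each array in turn. Leaving out both arrays that stood apart, and counting any probe set of a gene, were chosen after seeing the data.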

Additional observations from a re-analysis of the deposited data

How the results depend on the processing

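No call of a member reversed its direction under any alternative run. Of 26 calls, 26 were kept with quantile normalization, with a pseudocount of 16, with array weights and with dim probe sets left out, 23 with array medians subtracted, 22 with a trended variance, 22 with probe sets averaged per gene, 21 with a pseudocount of 64, 12 without both arrays that stood apart, 8 in fits to the 6 arrays compared alone and 0 with the methods' t-test after adjustment. Members that passed with DOX in WT hearts numbered 9, with the t-test 0, and 4 without both arrays. Leaving out 1 array gave 0 to 11, with 0 without untreated WT 2 or 3, 1 without DOX-treated WT 1 or 2 and 4 without untreated WT 1. In knockout-labelled hearts the number was 10, with 6 arrays 1, with the t-test 0, and 6 without both arrays. Leaving out 1 array gave 4 to 11, with 4 without DOX-treated knockout-labelled 1 or 2, 5 without untreated knockout-labelled 1 and 6 without untreated knockout-labelled 3. Between untreated genotypes 5 passed, 8 with dim probe sets left out, 2 with 6 arrays, 0 with the t-test and 3 without both arrays. Leaving out 1 array gave 1 to 6, with 1 without untreated WT 2, 2 without untreated WT 1 or 3 or untreated knockout-labelled 1 or 3, and 3 without DOX-treated knockout-labelled 3. After DOX 2 passed, 0 with array medians, a pseudocount of 64, 6 arrays or the t-test, 1 with the trended variance or without both arrays, 5 with array weights and 6 with dim probe sets left out. Leaving out 1 array gave 0 to 5, with 0 without any 1 of the untreated WT arrays, DOX-treated WT 1 or 2 or DOX-treated knockout-labelled 2 or 3, 1 without untreated knockout-labelled 1 or 2, 4 without DOX-treated WT 3 and 5 without untreated knockout-labelled 3. The interaction gave 0 in each fit. Counting any probe set of a gene, the numbers were 11, 10, 7, 2 and 0. At an unadjusted p below 0.05 the t-test gave 15, 16, 10 and 12 members. The shares of all genes that pass under these alternatives are not given here. The numbers thus show how the count of members moves with the processing, and not whether the members stand out. With the replicate block the numbers were 7, 8, 6, 1 and 0, and 20 of 26 calls were kept. Equal numbers were not taken to pair the arrays. Correlations of deviations from the group means ran from -0.25 to 0.15 for same-numbered arrays and from -0.29 to 0.28 for other pairs. With 3 arrays a group this shows no pairing but cannot exclude it. Depth cannot be judged from intensities, and Glrx3 was too dim to follow.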

Other observations

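Among 11 measured genes of oxidant sources, such as the NADPH oxidases, Cybb, the catalytic subunit of the phagocyte oxidase, fell with DOX in WT hearts. It measured 124, 134 and 133 in untreated WT hearts, 169, 90.2 and 167 in untreated knockout-labelled hearts, 59.4, 69.9 and 68.8 in DOX-treated WT hearts and 85.6, 100.4 and 86.3 in DOX-treated knockout-labelled hearts. The log2 fold change was -0.73 (SE 0.16, adjusted p = 0.045) in WT and -0.47 (SE 0.16, adjusted p = 0.18) in knockout-labelled hearts. It stood beside the lower macrophage markers of DOX-treated WT hearts, and their part in the result was not tested. No other gene of that list passed in any comparison. Cybb alone was 9.09% of the list, where 6.7% of the bright genes passed with DOX in WT hearts.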
